A study of Danio rerio with 28 samples.

Results

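The comparison set 8 libraries from 4 zebrafish that had received PBS, the buffer alone, against 4 libraries from 2 control fish of the same experiment. These 12 libraries, from 6 fish, were chosen by their labels out of 28 libraries from 14 fish. Each library held RNA of 100 cells sorted from the brain of an adult zebrafish. Every fish carried TgBAC(ccl34b.1:eGFP), a green reporter under the regulatory sequence of the chemokine gene ccl34b.1, and Tg(mpeg1:DsRedx), a red reporter under that of the macrophage gene mpeg1. Each brain gave a library of ccl34b.1+mpeg1+ cells and another of ccl34b.1-mpeg1+ cells, here called ccl34b.1+ and ccl34b.1- cells. PBS and control fish were 6 months old, and the labels give no treatment for the controls. Values from 3 fish of the same age and experiment injected with E. coli, and from 5 untreated fish aged 4 months, are set beside the PBS and control values. The labels state neither the time of day of sampling, nor the time after injection, nor the site or volume of injection, nor whether controls were handled like injected fish. Changes due to the needle, to PBS, to handling and to any difference in the time of day of sampling therefore cannot be told apart here. The term PBS effect stands for all of them.

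The question was which changes were common to both gates. Microglia are the resident macrophages of the brain. They react within minutes to hours to injury and to signals from damaged cells, and in zebrafish, as in mammals, mpeg1+ cells of the brain also hold other phagocytes. Most cells carry a circadian clock, a loop in which CLOCK and BMAL1 proteins switch on the PER, CRY and NR1D genes, whose products switch the loop off again. Output genes of the clock are controlled through D-box elements by activators (DBP, TEF, HLF) and a repressor (NFIL3). In zebrafish this clock runs in most tissues and is set directly by light, and glucocorticoids, the steroid hormones of the stress response, also act on PER genes in vertebrates.

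Counts were fitted over all 12 libraries with the gate as a covariate, and levels are given as CPM (counts scaled to a common library total, computed from the deposited counts). Among 11481 genes tested, 6 passed at an adjusted p under 0.05 in edgeR's quasi-likelihood test, which is 0.0523% of the genes: 2 were higher and 4 lower after PBS. An unadjusted p under 0.05 was reached by 626 genes (5.45%), close to the share expected at that threshold without any difference. The higher genes were nfil3-5 and prdx6, and the lower genes PER3, ciarta, malat1 and ccl35.1. Of these 6 genes, 3 belong to the circadian clock or its output. The list that holds these 3, described below, covers 40 of the 11481 genes tested. It was chosen with earlier results of these data known, so the count is a description and no test. In each of the 6, all 4 PBS libraries lay on the same side of both control libraries in ccl34b.1+ cells and again in ccl34b.1- cells. This held for 132 of all genes tested (1.15%), of which 45 (0.392%) were higher and 87 (0.758%) lower. Such a lack of overlap was read from the libraries that gave the calls. Here and below it is a description and adds no support to a gene. The test takes the libraries of a fish as independent, and its p-values rest on 2 control fish. The labels number the libraries of each gate, and equal numbers were taken as the same fish, which the labels do not state. With the counts of each such fish summed over its gates, 2 genes passed in edgeR, si:dkey-119g10.4 and si:dkey-6n3.3, and neither was among these 6. They are named after their values were seen. With the mean log2 CPM of each fish in limma 9 passed, 5 of these 6 among them. The lowest adjusted p of that limma fit was that of ccl34b.8, a chemokine gene (log2 difference 4.54, adjusted p 6.97e-06). In the edgeR fit over all 12 libraries its adjusted p was 0.659, and its values by gate are given below.

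nfil3-5 (ENSDARG00000094965) encodes a basic leucine zipper protein of the NFIL3 family, which in mammals represses D-box genes. It had 43.9, 38.7, 34.8 and 48.6 CPM in ccl34b.1+ cells of PBS fish, against 0.678 and 0.664 CPM in control fish. It had 107, 29.6, 269 and 170 CPM in ccl34b.1- cells of PBS fish, against 1.83 and 1.26 CPM in control fish. The gene was close to absent in all 4 control libraries, with 11 counts in them together, and well above that in all 8 PBS libraries, with no overlap. The fitted difference was 6.22 ± 0.80 on the log2 scale (SE derived from the test statistic), or 74.5-fold higher, with an adjusted p of 0.00108 in edgeR. It passed without any single library, and without the pair of libraries numbered control 2 its adjusted p was 0.0548. With each fish as 1 value, the mean log2(CPM + 1) over its gates differed by 5.06 between 4 PBS and 2 control fish. An exact two-sided permutation test over 4 against 2 fish cannot give a p below 0.0667, so it could not pass the threshold.

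PER3 (ENSDARG00000010519) encodes a period protein, a repressor of the clock loop. It had 13.1, 46.0, 46.0 and 11.75 CPM in ccl34b.1+ cells of PBS fish, against 206 and 180 CPM in control fish. It had 10.3, 4.94, 15.03 and 4.39 CPM in ccl34b.1- cells of PBS fish, against 277 and 160 CPM in control fish. Every PBS library was far below every control library. The gene fell by 3.79 ± 0.57 on the log2 scale, 13.9-fold lower, with an adjusted p of 0.00534 in edgeR. It passed without any single library, and without the pair of libraries numbered control 1 its adjusted p was 0.254.

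ciarta (ENSDARG00000058094) is a zebrafish counterpart of CIART, a mammalian repressor of CLOCK and BMAL1 that is itself driven by the clock. It had 0.456, 1.75, 0 and 41.3 CPM in ccl34b.1+ cells of PBS fish, against 282 and 228 CPM in control fish. It had 2.56, 0.549, 0.301 and 0.329 CPM in ccl34b.1- cells of PBS fish, against 98.1 and 98.6 CPM in control fish. The ccl34b.1+ library of PBS fish 4 stood above the other PBS libraries and still below the controls, while the ccl34b.1- library with that number was near 0. The gene fell by 5.71 ± 1.04 on the log2 scale with an adjusted p of 0.0293 in edgeR. Without the pair of libraries numbered PBS 4, the difference was -7.45 with an adjusted p of 0.00051, and leaving out any other numbered pair gave an adjusted p from 0.0641 to 0.315 with the same direction. It passed in 3 of the 12 fits that left out a single library.

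prdx6 (ENSDARG00000043511) encodes a peroxiredoxin, an enzyme that reduces peroxides and oxidised phospholipids. It had 198, 378, 202 and 420 CPM in ccl34b.1+ cells of PBS fish, against 87.8 and 73.7 CPM in control fish. It had 232, 368, 217 and 153 CPM in ccl34b.1- cells of PBS fish, against 42.9 and 29.1 CPM in control fish. The lowest PBS library of each gate was still above both controls. The gene rose by 2.30 ± 0.40 on the log2 scale, 4.92-fold, with an adjusted p of 0.0293 in edgeR, and it passed by a narrow margin without the libraries numbered PBS 1 (adjusted p 0.04997). Without those of any other numbered fish, PBS or control, it did not pass, with an adjusted p of up to 0.618 and the same direction. It passed in 4 of the 12 fits without a single library.

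malat1 (ENSDARG00000099970) is a long non-coding RNA kept in the nucleus and among the most abundant RNAs of these libraries. It had 70940, 40710, 73540 and 56100 CPM in ccl34b.1+ cells of PBS fish, against 123200 and 137300 CPM in control fish. It had 86510, 64900, 76200 and 85470 CPM in ccl34b.1- cells of PBS fish, against 136700 and 146000 CPM in control fish. The change was small and even, with no overlap in either gate: it fell by 0.98 ± 0.17 on the log2 scale with an adjusted p of 0.0293 in edgeR. Leaving out the libraries of any numbered fish gave an adjusted p from 0.0562 to 0.556 with the same direction, and it passed in 6 of the 12 fits without a single library.

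ccl35.1 (ENSDARG00000103466) encodes a CC chemokine of a fish-specific group. It had 446, 223, 321 and 291 CPM in ccl34b.1+ cells of PBS fish, against 720 and 1280 CPM in control fish. It had 2342, 1639, 1478 and 3593 CPM in ccl34b.1- cells of PBS fish, against 3796 and 9250 CPM in control fish. The groups did not overlap, but the highest PBS library of ccl34b.1- cells came close to the lower control library, and the control libraries lay far apart. The gene fell by 1.59 ± 0.28 on the log2 scale, 3.00-fold lower, with an adjusted p of 0.0293 in edgeR. Without the libraries numbered control 2 the difference shrank to -0.96 with an adjusted p of 0.895, and without those numbered control 1 it was -2.03 with an adjusted p of 0.005. Of the 12 fits without a single library, it passed in 5.

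**Figure D1:**
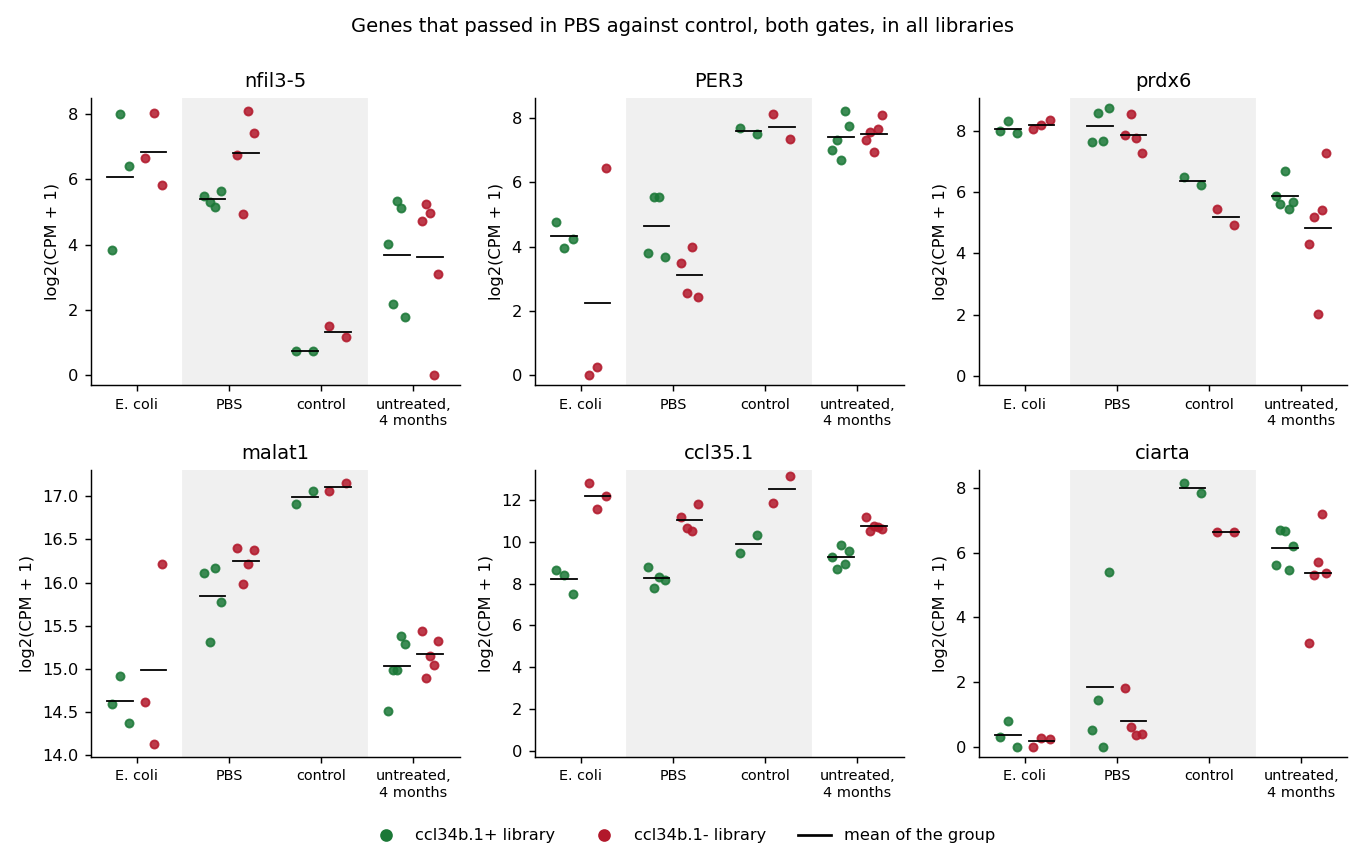
Level of the 6 genes that passed in PBS against control over both gates, as log2(CPM + 1) on the vertical axis (each panel has its own range, and that of malat1 does not start at 0), for every library of E. coli, PBS, control and 4-month untreated fish. Green points are ccl34b.1+ libraries, red points ccl34b.1- libraries, lines their means; within the grey band, PBS and control points do not overlap in either gate.

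The E. coli and 4-month libraries show on which side of the PBS difference other fish lay. The E. coli fit shares the control libraries with the PBS fit, so its values are given side by side and are no second test. A side means the nearer side of the midpoint between the mean log2(CPM + 1) of PBS and of control libraries in the same gate. For nfil3-5, all 6 E. coli libraries lay on the PBS side, from 13.3 to 262 CPM, and for ciarta all 6 did, from 0 to 0.742 CPM. For PER3, 5 of 6 E. coli libraries lay on the PBS side, and the other, in ccl34b.1- cells of E. coli fish 3, had 86.3 CPM. For prdx6 and malat1 all 6 E. coli libraries lay on the PBS side. For ccl35.1 all 3 E. coli libraries of ccl34b.1+ cells lay on the PBS side, whereas of the 3 of ccl34b.1- cells 1 lay on the PBS side and 2 on the control side. In an additive fit of the 18 libraries of the injection experiment, E. coli against control gave log2 differences of 6.91 for nfil3-5, -3.10 for PER3, -9.52 for ciarta and 2.26 for prdx6, and PBS against control gave 6.21, -3.63, -5.58 and 2.22 for the same genes in the same order. In that fit malat1 differed by -2.16 after E. coli and -1.02 after PBS, and ccl35.1 by -1.06 after E. coli and -1.63 after PBS.

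Untreated fish aged 4 months resembled the controls in some of these genes and not in others. PER3 lay on the control side in all 10 of their libraries, with 103, 126, 159, 213 and 292 CPM in ccl34b.1+ cells and 121, 158, 189, 201 and 271 CPM in ccl34b.1- cells. ciarta and prdx6 lay on the control side in 9 of 10. nfil3-5, from 0 to 39.2 CPM, was on the PBS side in 6 libraries and on the control side in 4, so the near absence seen in the controls was not shared by all untreated fish. malat1 was on the PBS side in all 10 libraries. ccl35.1 was on the PBS side in 2 of 5 ccl34b.1+ and 5 of 5 ccl34b.1- libraries. These fish differ from the injection experiment in age, experiment and depth, so no test was made.

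The list of clock and glucocorticoid-response genes had 40 members tested, of which 1 passed as higher and 2 as lower, against 0.0174% and 0.0348% of all genes. Without adjustment, 2 members were higher and 9 lower at p under 0.05, against 2.42% and 3.03% of all genes. The median log2 difference of its members was -0.52, against -0.0016 over all genes tested, and 29 of 40 were negative. PBS and control libraries did not overlap in either gate for 2 higher and 5 lower members, against 0.392% and 0.758% of all genes. The list was chosen with earlier results of these data known. Its values beside those of all genes are therefore a description and no test. The members described next were chosen after their values were seen, and none of them passed the adjusted threshold.

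NR1D1 (ENSDARG00000033160) encodes REV-ERB alpha, a nuclear receptor that represses BMAL1. Its counts were 3 in the 8 PBS libraries together and 295 in the 4 control libraries, and the control libraries had 39.3 and 19.9 CPM in ccl34b.1+ cells and 41.1 and 12.2 CPM in ccl34b.1- cells. The pooled level was 336-fold higher in control libraries (95% counting interval 114 to 1640), yet the fitted difference of -7.74 ± 1.67 had an adjusted p of 0.14 in edgeR. The gene had 0 CPM in all 6 E. coli libraries. In 4-month fish it had 3.27 to 29.4 CPM in ccl34b.1+ cells, and in ccl34b.1- cells it was at 0 in 2 of 5 libraries. NR1D2 (ENSDARG00000009594), which encodes the related REV-ERB beta, had 31.8, 19.8, 56.4 and 6.04 CPM in ccl34b.1+ cells of PBS fish, against 215 and 82.3 CPM in control fish. Its ccl34b.1- libraries overlapped, with 25.9, 43.1, 8.72 and 127 CPM after PBS, against 237 and 70.0 CPM in control fish, and the difference was -2.00 ± 0.63 with an adjusted p of 0.398.

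Both gene copies named PER1 were low after PBS. The copy ENSDARG00000012499 had 15.1, 2.04, 51.5 and 23.2 CPM in ccl34b.1+ cells of PBS fish, against 129 and 78.0 CPM in control fish. The same copy had 30.1, 0.274, 2.41 and 31.3 CPM in ccl34b.1- cells of PBS fish, against 159 and 46.8 CPM in control fish. Within each gate no PBS library reached a control library, but the spread within each group was wide, and the difference of -2.43 ± 0.85 had an adjusted p of 0.619. The copy ENSDARG00000056885 had 2 counts in the 8 PBS libraries and 84 in the 4 control libraries, a pooled level 144-fold higher in controls (95% counting interval 39 to 1210), with an adjusted p of 0.333. PER2 (ENSDARG00000034503), a light-induced period gene in zebrafish, did not share this pattern in both gates. It had 33.7, 4.37, 2.74 and 9.53 CPM in ccl34b.1+ cells of PBS fish, against 20.4 and 0.664 CPM in control fish. In ccl34b.1- cells it had 0, 0, 0 and 2.63 CPM in PBS fish, against 38.8 and 42.1 CPM in control fish.

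Among the D-box activators, dbpb (ENSDARG00000057652), a DBP gene, had no counts in any PBS library and 90 in the controls, 1 of which also had 0. Against a floor of 3 counts over the group, the pooled level was at least 103-fold lower after PBS, with an adjusted p of 0.333. tefa (ENSDARG00000039117), a TEF gene, had 178, 57.3, 94.8 and 34.3 CPM in ccl34b.1+ cells of PBS fish, against 264 and 166 CPM in control fish, which overlap. Its difference was -1.14 ± 0.44 with an adjusted p of 0.728. Activators of the loop itself went another way or varied. BMAL1 (copy ENSDARG00000035732) had 200 counts over the 8 PBS libraries, 2 of which had none, and none in the 4 control libraries, with an adjusted p of 0.769. The other BMAL1 copy (ENSDARG00000006791) differed by 0.49 ± 0.82, and its libraries overlapped. Cryptochromes, which repress the loop together with PER proteins, did not move together: CRY1 (ENSDARG00000011583) differed by 3.46 ± 1.85, CRY1 (ENSDARG00000045768) by -1.35 ± 1.13 and CRY2 (ENSDARG00000102403) by -3.44 ± 1.78, with adjusted p-values of 0.964, 1 and 0.956.

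Glucocorticoid-response genes of the list gave no common direction. FKBP5 (ENSDARG00000028396), a co-chaperone of the glucocorticoid receptor that the hormone induces in mammals, had 36.0, 38.7, 68.2 and 53.4 CPM in ccl34b.1+ cells of PBS fish, against 18.3 and 21.2 CPM in control fish. It had 49.97, 45.8, 29.5 and 16.4 CPM in ccl34b.1- cells of PBS fish, against 11.0 and 8.43 CPM in control fish. The groups did not overlap, and the difference of 1.58 ± 0.78 had an adjusted p of 0.935. Other hormone-induced genes overlapped: tsc22d3 (GILZ) differed by -0.29 ± 0.52, sgk1, a kinase, by 0.62 ± 1.01, and the receptor gene NR3C1 by -0.40 ± 0.79, with adjusted p-values of 1 for each.

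**Figure D2:**
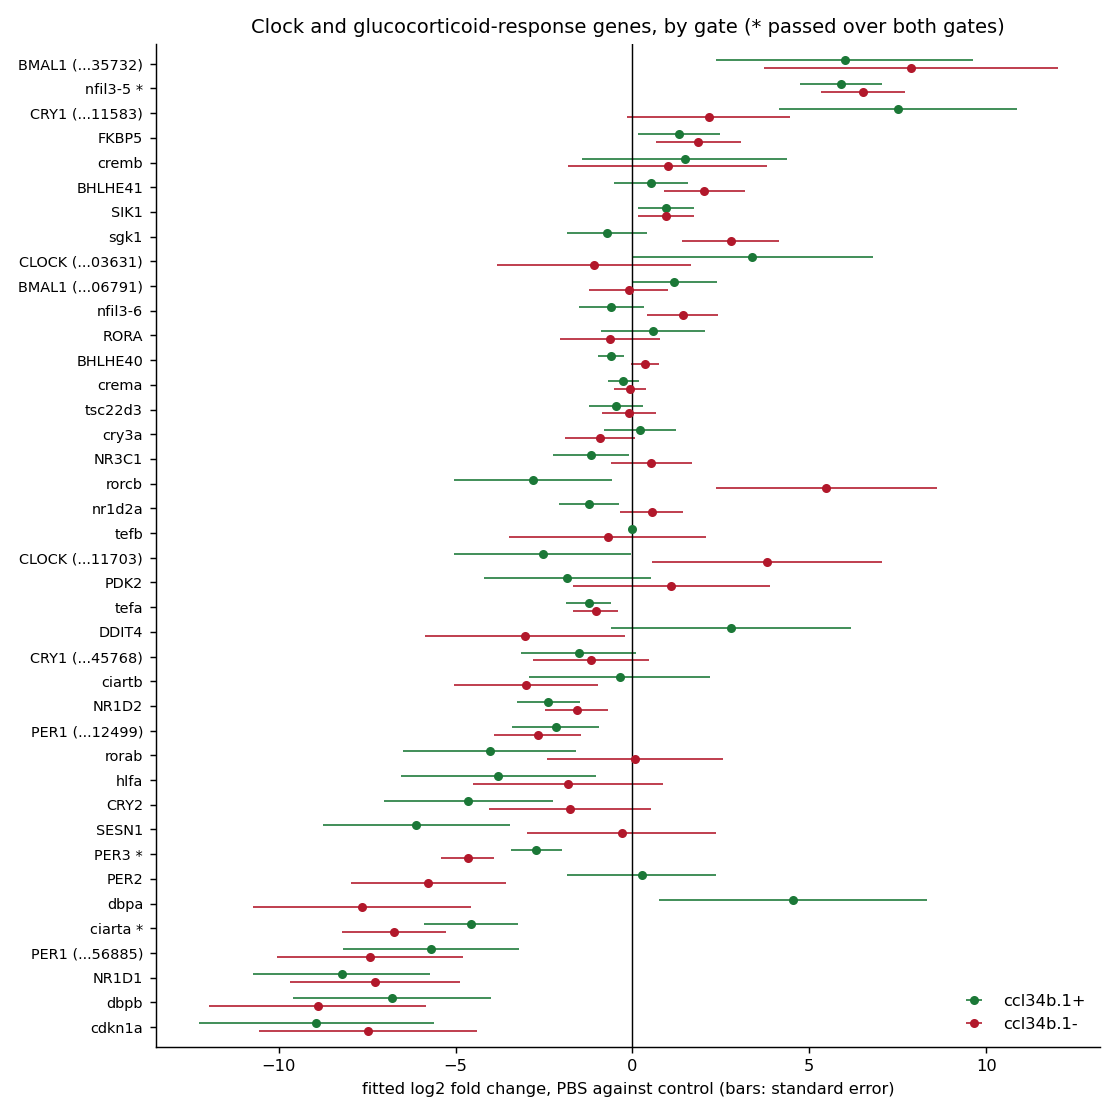
Fitted log2 fold change of PBS against control (horizontal axis) for the 40 members of the clock and glucocorticoid-response list. Bars are standard errors derived from the test statistic. Green is ccl34b.1+ cells and red ccl34b.1- cells, ordered by the difference over both gates. A star marks the 3 members that passed. nfil3-5, PER3, ciarta, NR1D1 and both PER1 copies lie on the same side in both gates, while PER2 and several low-count genes do not.

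Immune genes gave few changes common to both gates. Of 18 chemokine genes tested, 1 passed as lower (ccl35.1) and none as higher, and their median difference was -0.53. Without adjustment 3 were higher and 2 lower, against 2.42% and 3.03% of all genes. The median was 0.44 in ccl34b.1+ and -0.89 in ccl34b.1- cells, against 0 and 0.23 over all genes. The list thus had no direction common to both gates. The neighbour in name ccl35.2 (ENSDARG00000070378) had 67.8, 45.1, 39.7 and 46.7 CPM in ccl34b.1+ cells of PBS fish, against 111 and 182 CPM in control fish. It had 758, 285, 331 and 1041 CPM in ccl34b.1- cells of PBS fish, against 982 and 4165 CPM in control fish, where the groups overlap. The difference was -1.83 ± 0.37 with an adjusted p of 0.0744 in edgeR. Reads of ccl35.1 and ccl35.2 may have been shared between them, since the handling of reads that match several genes is not given in the sources used here.

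None of the 42 inflammatory genes tested passed, at a median of -0.29. By gate the median was -0.57 in ccl34b.1+ and 0.18 in ccl34b.1- cells, against 0 and 0.23 over all genes. Without adjustment 3 were higher and 4 lower, against 2.42% and 3.03% of all genes. The named members were tnfb, a tumour necrosis factor gene, and il6, the interleukin 6 gene. tnfb had 124 ± 52.4 CPM in ccl34b.1+ and 911 ± 428 CPM in ccl34b.1- cells of PBS fish, against 395 ± 354 and 2485 ± 1642 CPM in control fish (SD, n = 4 and 2), and differed by -1.56 ± 0.38 with an adjusted p of 0.333 in edgeR. il6 had 261 ± 88.0 and 15.7 ± 5.86 CPM in the same gates of PBS fish, against 71.1 ± 21.9 and 2.55 ± 2.96 CPM in control fish. Its PBS and control libraries did not overlap in either gate, and the difference of 2.19 ± 0.54 had an adjusted p of 0.333. These cytokine genes therefore lay on opposite sides, neither past the threshold.

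None of the 36 genes of NF-kB and MAPK feedback passed (median 0.12) and none of the 42 immediate early genes (median -0.14). In ccl34b.1+ cells the medians of these lists were -0.17 and -0.39, against 0 over all genes. In ccl34b.1- cells they were 0.10 and 0.14, against 0.23 over all genes. SOCS3 (ENSDARG00000026611), an inhibitor of cytokine signalling that IL-6 induces, had 263 ± 160 and 84.0 ± 34.6 CPM in ccl34b.1+ and ccl34b.1- cells of PBS fish, against 63.8 ± 29.7 and 30.7 ± 9.47 CPM in control fish (SD, n = 4 and 2). It differed by 1.74 ± 0.48 with an adjusted p of 0.333 in edgeR. The other gene named SOCS3 (ENSDARG00000025428), added after its values were seen, differed by -0.08 ± 0.42. JUN, a subunit of AP-1, had 1254, 814, 1578 and 927 CPM in ccl34b.1+ cells of PBS fish, against 2964 and 2266 CPM in control fish. It had 2925, 1032, 1096 and 3797 CPM in ccl34b.1- cells of PBS fish, against 4050 and 5349 CPM in control fish. The groups did not overlap in either gate, and the difference of -1.14 ± 0.30 had an adjusted p of 0.333. KLF6, a zinc finger factor induced early after stimulation, differed by -1.07 ± 0.29, also without overlap and with an adjusted p of 0.333.

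Antigen presentation, sensing and identity genes did not pass in either direction. Of 9 MHC class II genes none passed (median -0.40). cd83, a surface protein of mature antigen-presenting cells, had the lowest adjusted p among them, 0.333, at a difference of -1.15 ± 0.33. Next came cd74b, the invariant chain that escorts MHC class II, with 15020 ± 4305 and 14430 ± 3003 CPM in ccl34b.1+ and ccl34b.1- cells of PBS fish, against 24090 ± 1520 and 18550 ± 80.7 CPM in control fish (SD, n = 4 and 2). Its difference of -0.53 ± 0.20 had an adjusted p of 0.731. Interferon-stimulated genes had a median of 0.39 over 36 tested, with none passing. By gate it was 0.13 in ccl34b.1+ and 0.19 in ccl34b.1- cells, against 0 and 0.23 over all genes. Without adjustment 1 was higher and 1 lower, against 2.42% and 3.03% of all genes. mxe, an antiviral Mx gene, had 2 counts in the 8 PBS libraries and 97 in the 4 control libraries (adjusted p 0.333). socs1b, a SOCS gene, had 117 counts in PBS libraries and none in the controls (adjusted p 0.856). No gene of this list, socs1b included, was higher after PBS without overlap in both gates. tlr8b, an endosomal receptor for RNA, differed by -1.28 ± 0.38 with an adjusted p of 0.337. The 22 microglia identity genes had a median of 0.09 and the 33 pan-myeloid genes of 0.14, with none passing. By gate, the microglia identity median was -0.11 in ccl34b.1+ and 0.59 in ccl34b.1- cells, and the pan-myeloid median -0.05 and 0.28. Neither list thus had a direction common to both gates. In the first list the lowest adjusted p-values were those of apoc1, an apolipoprotein gene (-0.78 ± 0.27, adjusted p 0.619), and cd68, an endosomal glycoprotein of macrophages (1.07 ± 0.42, adjusted p 0.767). The sort genes did not pass either: ccl34b.1 had 4585 ± 1038 CPM in ccl34b.1+ and 76.0 ± 43.0 CPM in ccl34b.1- cells of PBS fish, against 6996 ± 1319 and 111 ± 70.0 CPM in control fish, with an adjusted p of 0.96. MPEG1 (ENSDARG00000055290) had 704 ± 305 and 1767 ± 531 CPM in the same gates of PBS fish, against 854 ± 91.9 and 1129 ± 406 CPM in control fish, with an adjusted p of 1.

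Heat shock genes had a median difference of -0.70 over 23 tested, with none passing and 7 lower and none higher without adjustment, against 3.03% and 2.42% of all genes. Fitted by gate, their median was -0.38 in ccl34b.1+ and 0.10 in ccl34b.1- cells, against 0 and 0.23 over all genes. The list median was thus below that of all genes in both gates, though above 0 in ccl34b.1- cells. hsp70.1, an inducible chaperone, had 1236 ± 562 CPM in ccl34b.1+ cells and 1236 ± 893 CPM in ccl34b.1- cells of PBS fish, against 5088 ± 476 and 1751 ± 717 CPM in control fish (SD, n = 4 and 2). hsp70.3, a near copy, had 3622 ± 1737 and 1692 ± 1377 CPM in the same gates of PBS fish, against 12560 ± 296 and 2374 ± 735 CPM in control fish. Both genes were apart in ccl34b.1+ cells and overlapped in ccl34b.1- cells, with adjusted p-values of 0.337 and 0.398 in edgeR, and reads may be shared between copies. HSP90AA1 (ENSDARG00000024746), chosen after its values were seen, encodes a cytosolic HSP90 chaperone. It had 742, 1904, 681 and 469 CPM in ccl34b.1+ cells of PBS fish, against 2694 and 3910 CPM in control fish. It had 1854, 3925, 2375 and 3546 CPM in ccl34b.1- cells of PBS fish, against 7241 and 4957 CPM in control fish. The groups were apart in both gates, and the difference of -1.45 ± 0.31 had an adjusted p of 0.14. In untreated fish aged 4 months the gene averaged 28.1 ± 34.2 CPM in ccl34b.1+ and 212 ± 268 CPM in ccl34b.1- cells (SD, n = 5 each), far below both PBS and control fish. Other HSP90 genes of the list, also added after their values were seen, did not pass: hsp90aa1.1 (ENSDARG00000010478) differed by -1.55 ± 0.99 and HSP90AB1 by -0.03 ± 0.23. The cells of all fish were released with warm trypsin before sorting, and its part in the levels of stress genes was not tested.

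Lists of the protein and energy machinery lay mostly above 0 over both gates without any member passing. Over all genes the median was 0 in ccl34b.1+ and 0.23 in ccl34b.1- cells. In that order, the proteasome list had 0.37 and 0.73, the respiratory chain 0.40 and 0.29, and the unfolded protein response 0.29 and 0.26. Ribosomal protein genes had 0.21 and 0.13, sterol synthesis genes 1.00 and 0.19, and lysosome genes -0.03 and 0.45. Ribosomal and sterol lists thus lay below all genes in ccl34b.1- cells, and the lysosome list in ccl34b.1+ cells. The 46 proteasome genes had a median of 0.48, against -0.0016 over all genes, and 39 were positive. Without adjustment 5 were higher, against 2.42% of all genes. They were led by PSME3, a proteasome activator subunit (2.1 ± 0.88, adjusted p 0.86), and PSMB3, a core subunit (1.2 ± 0.53, adjusted p 0.899). Nuclear genes of the respiratory chain had a median of 0.33 over 76 tested, with 59 positive, led by the ATP synthase subunit genes ATP5F1B (0.69 ± 0.28, adjusted p 0.834) and ATP5PB (1.06 ± 0.46, adjusted p 0.899). Those of the unfolded protein response had 0.24 over 33, led by the calreticulin genes calr3a (1.09 ± 0.39, adjusted p 0.671) and calr3b (1.79 ± 0.70, adjusted p 0.761). The 77 ribosomal protein genes had a median of 0.14. The 63 lysosome genes had a median of 0.12, and LGMN, a lysosomal protease, had 2017 ± 729 and 839 ± 406 CPM in ccl34b.1+ and ccl34b.1- cells of PBS fish, against 919 ± 74.6 and 212 ± 163 CPM in control fish (1.54 ± 0.41, adjusted p 0.333). CTSD, the protease cathepsin D, differed by 1.27 ± 0.47 with an adjusted p of 0.704. Sterol synthesis genes had a median of 0.36 over 23, with HMGCS1, an early enzyme of the pathway, at 136 ± 76.1 and 40.0 ± 44.2 CPM in PBS fish, against 13.2 ± 9.99 and 8.06 ± 9.46 CPM in control fish (2.81 ± 1.01, adjusted p 0.659). SQLE, a later enzyme of the same pathway, had 743 counts in PBS libraries and 2 in control libraries, with an adjusted p of 0.619. Neither SQLE nor HMGCS1 was without overlap in both gates. Genes of complement and coagulation had a median of 0.82 over 16, but of -0.22 in ccl34b.1+ and 1.61 in ccl34b.1- cells when fitted by gate, so the list had no direction common to both. F10, the coagulation factor X gene, had 220 counts in PBS libraries and none in the controls, with an adjusted p of 0.899. Its PBS and control libraries were not apart in both gates. f13a1b, a gene for the A subunit of coagulation factor XIII, which macrophages make, had 134, 417, 173 and 181 CPM in ccl34b.1+ cells of PBS fish, against 46.8 and 16.3 CPM in control fish. It had 185, 712, 382 and 311 CPM in ccl34b.1- cells of PBS fish, against 33.3 and 180 CPM in control fish. The groups did not overlap, by a narrow margin in ccl34b.1- cells, and the difference of 2.34 ± 0.53 had an adjusted p of 0.173.

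Cell cycle genes had a median of -1.2 over 29 tested, against -0.0016 over all genes, with 24 negative and none passing. Without adjustment 4 were lower, against 3.03% of all genes. TOP2A, which untangles DNA in dividing cells, had 1.03 ± 2.05 and 0.107 ± 0.151 CPM in ccl34b.1+ and ccl34b.1- cells of PBS fish, against 16.4 ± 4.96 and 27.09 ± 10.56 CPM in control fish (SD, n = 4 and 2), with an adjusted p of 0.417. cdkn1a, an inhibitor of the cell cycle (p21), had no counts in any PBS library and 118 in the controls, 2 of which also had 0. These levels are low. In libraries of 100 cells, fewer dividing cells, less RNA per cell and the lower number of genes detected in PBS libraries (given below) cannot be told apart.

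**Figure D3:**
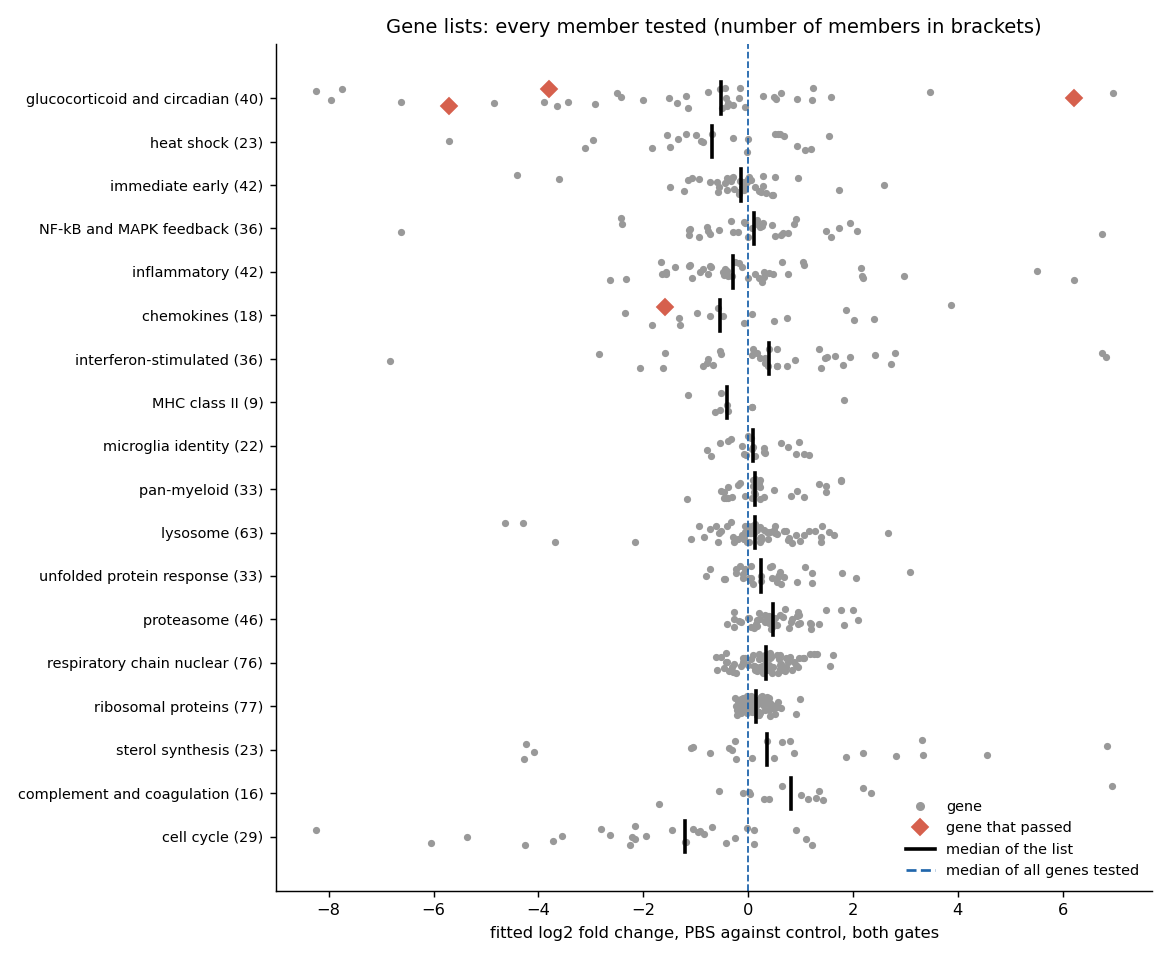
Fitted log2 fold change of PBS against control over both gates (horizontal axis) for every tested member of 18 gene lists, with the number of members in brackets. Grey points are genes, red diamonds genes that passed, black bars list medians and the dashed line the median of all genes tested. The 4 diamonds are nfil3-5, PER3, ciarta and ccl35.1. prdx6, which also passed, belongs to a list not plotted, that of phagocyte oxidase and iron genes (40 tested, median 0.05).

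Further genes were without overlap in both gates and are named after their values were seen. FGL2, a fibrinogen-like protein with immune functions in mammals, missed the threshold most narrowly. It had 793, 1454, 552 and 459 CPM in ccl34b.1+ cells of PBS fish, against 153 and 219 CPM in control fish. It had 321, 172, 260 and 151 CPM in ccl34b.1- cells of PBS fish, against 66.2 and 72.9 CPM in control fish. All PBS libraries were above the controls, and the difference of 1.91 ± 0.37 had an adjusted p of 0.0511 in edgeR. E. coli fish had still more, 8129 ± 2468 and 673 ± 152 CPM in the same gates (SD, n = 3 each). npm1a, a nucleolar chaperone gene, had 558, 680, 287 and 705 CPM in ccl34b.1+ cells of PBS fish, against 72.9 and 158 CPM in control fish. It had 63.7, 334, 43.0 and 251 CPM in ccl34b.1- cells of PBS fish, against 34.2 and 41.3 CPM in control fish, where the lowest PBS library was close to the controls (2.23 ± 0.50, adjusted p 0.173).

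Among the lower genes, also named after their values were seen, ACSF2, a mitochondrial acyl-CoA synthetase, had 0.456, 0.582, 0 and 0.318 CPM in ccl34b.1+ cells of PBS fish, against 25.1 and 35.17 CPM in control fish. In ccl34b.1- cells it had 0, 0.274, 0 and 0 CPM in PBS fish, against 20.5 and 51.8 CPM in control fish (-7.45 ± 1.53, adjusted p 0.0906). DDB2, a DNA damage sensor, had 1.06, 1.16, 0.822 and 0.318 CPM in ccl34b.1+ cells of PBS fish, against 118 and 55.4 CPM in control fish. In ccl34b.1- cells it had 2.56, 0, 29.5 and 22.6 CPM in PBS fish, against 107 and 39.62 CPM in control fish (-4.97 ± 1.27, adjusted p 0.333). Both genes also varied widely in untreated 4-month fish, where ACSF2 ran from 0 to 83.8 CPM and DDB2 from 5.68 to 130 CPM. Of the 87 lower genes without overlap, 14 had 3 or fewer counts in the 8 PBS libraries together.

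Taken gate by gate in a fit of 4 groups, 4 genes (0.0348%) passed in ccl34b.1+ cells and 4 (0.0348%) in ccl34b.1- cells, with median differences of 0 and 0.23 over all genes. Those of ccl34b.1+ cells were ccl34b.8, ipcef1, PRKCA (ENSDARG00000115657) and si:busm1-57f23.1, and those of ccl34b.1- cells nfil3-5, PER3, CPVL and TRIP10. No gene passed in both gates, and none of the genes that passed over both gates did so in ccl34b.1+ cells. nfil3-5 and PER3 had log2 differences of 6.51 and -4.66 in ccl34b.1- cells, where they passed, and 5.88 and -2.72 in ccl34b.1+ cells, where they did not. No gene passed the test of the difference between gates in this edgeR fit, 555 had an unadjusted p under 0.05, and DESeq2 called 37. Of the named genes with the smallest interaction p, ccl34b.8, a chemokine gene, had 6680, 12560, 2834 and 3796 CPM in ccl34b.1+ cells of PBS fish, against 32.6 and 50.8 CPM in control fish. In ccl34b.1- cells it had 434, 365, 99.8 and 664 CPM in PBS fish, against 48.4 and 128 CPM in control fish, where the groups overlap. The log2 difference was thus 7.28 in ccl34b.1+ and 2.15 in ccl34b.1- cells, with an adjusted interaction p of 0.108 in edgeR. The gate difference of ccl34b.8 did pass in some other edgeR fits: without ccl34b.1+ library 3 of PBS fish (adjusted p 0.0435), with no filter on low counts (3.45e-16) and, with equal numbers taken as the same fish and fish as a fixed block, at 8.2e-14. No gene passed the gate difference with DESeq2 size factors, with a filter at 10 CPM, in limma voom or after thinning to the shallowest library. Neither did any gene when any other single library was left out. CPVL, a carboxypeptidase, differed by 0.01 in ccl34b.1+ and 5.82 in ccl34b.1- cells, ipcef1 by -6.45 and 0.75, PRKCA (ENSDARG00000115657) by -5.43 and 0.53, and cxcl8b.1, a chemokine gene of the interleukin 8 type, by 3.76 and -5.03 in the same order of gates. cxcl8b.1 also passed the gate difference in edgeR with no filter (adjusted p 2.27e-05) and with fish as a fixed block (0.00784).

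**Figure D4:**
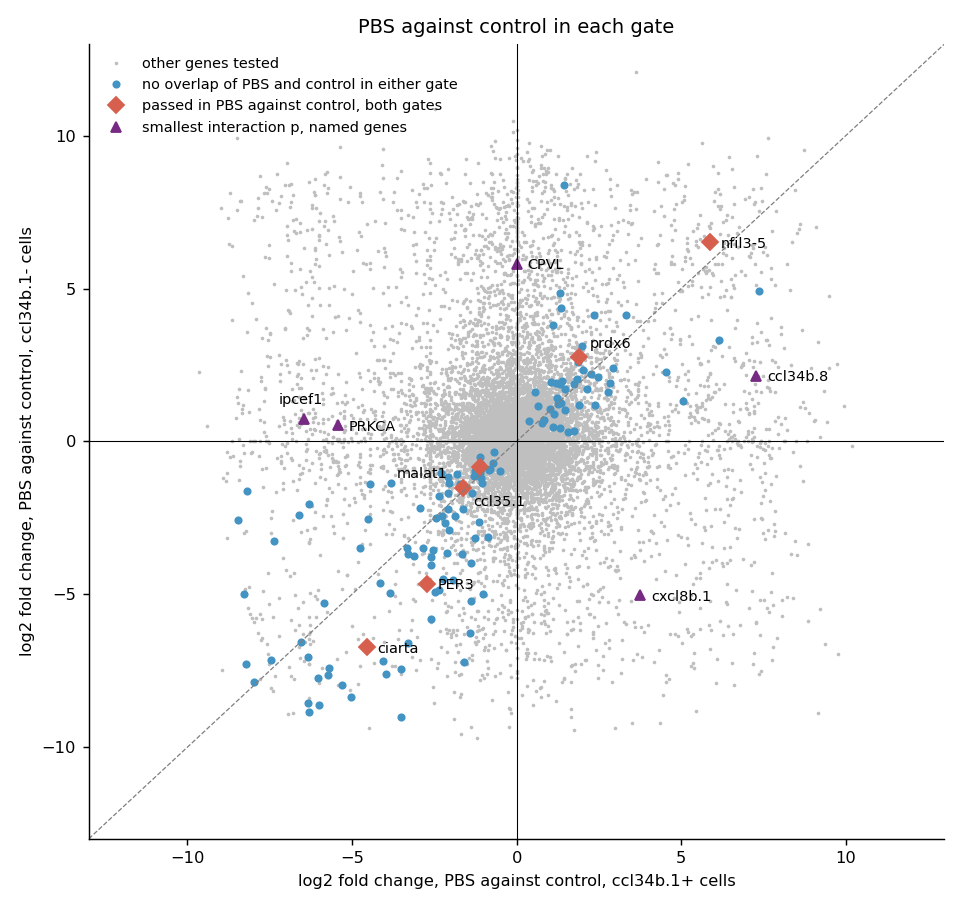
Fitted log2 fold change of PBS against control in ccl34b.1+ cells (horizontal axis) and in ccl34b.1- cells (vertical axis) for the 11481 genes tested. Red diamonds are the 6 genes that passed over both gates, blue points the other genes without overlap in both gates, purple triangles the named genes with the smallest interaction p; each diamond lies on the same side of 0 in both gates, while CPVL, ipcef1 and PRKCA lie near an axis and ccl34b.8, at 7.28 and 2.15, lies above 0 in both.

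The libraries of PBS and control fish also differed as a whole. Totals were 3.14 to 7.79 M counts (M, mega) in ccl34b.1+ and 2.90 to 9.00 M in ccl34b.1- libraries of PBS fish, against 3.57 to 3.60 and 2.24 to 2.35 M in control fish. At an equal depth of 2241693 counts, PBS libraries held 8339 to 9743 genes in ccl34b.1+ and 8781 to 9588 in ccl34b.1- cells, against 10372 to 11790 and 10169 to 10861 in control fish, with no overlap. The malat1 share of counts was 4.31 to 8.26% and 7.39 to 9.32% in the same gates of PBS fish, against at least 10.1% and 13.4% in control fish. Detected genes thus moved with the treatment in every library, and their part in the lower genes was not tested. With all libraries thinned to the shallowest, 10 genes passed, the 6 genes that passed over both gates among them. Thinning evens out depth only. The difference in detected genes was itself counted at that depth, so this fit cannot check it.

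Markers of other cells were compared as summed levels over each list. Erythrocyte and thrombocyte markers summed to 0 to 14.7 CPM in ccl34b.1+ libraries of PBS fish, against 22.6 to 25.8 CPM in control fish, with 13 of 19 genes at 0 in all 12 libraries. Meningeal and fibroblast markers summed to 12.4 to 33.4 CPM there, against 60.4 to 74.0 CPM in control fish, with 12 of 24 genes at 0. Dendritic cell markers summed to 808 to 1410 CPM in ccl34b.1+ libraries of PBS fish, against 1460 to 1660 CPM in control fish, with 2 of 23 genes at 0. In ccl34b.1- cells they overlapped, at 11600 to 17300 CPM in PBS fish against 11400 to 22000 CPM in control fish. These markers were thus far higher in ccl34b.1- than in ccl34b.1+ cells, in PBS and control fish alike. Endothelial and mural markers summed to 191 to 266 CPM in ccl34b.1- libraries of PBS fish, against 136 to 147 CPM in control fish, with 5 of 33 genes at 0. Each of these lists was without overlap in a single gate, and their part in the results was not tested. Microglia identity genes summed to 46700 to 67400 CPM in ccl34b.1+ and 2620 to 3590 CPM in ccl34b.1- libraries of PBS fish, against 55900 to 75100 and 2470 to 2700 CPM in control fish, so the labelled cell type had its markers at high levels in ccl34b.1+ cells and at far lower levels in ccl34b.1- cells. Pan-myeloid genes summed to 18800 to 22400 CPM in ccl34b.1+ and 15000 to 15900 CPM in ccl34b.1- libraries of PBS fish, against 21700 to 21800 and 12800 to 14100 CPM in control fish, high in both gates and without overlap in ccl34b.1- cells, where PBS fish were higher. The marker lists of lymphocytes (T, B and NK), neutrophils, neurons, oligodendrocytes, and radial glia with astrocytes overlapped between PBS and control libraries in both gates.

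**Figure D5:**
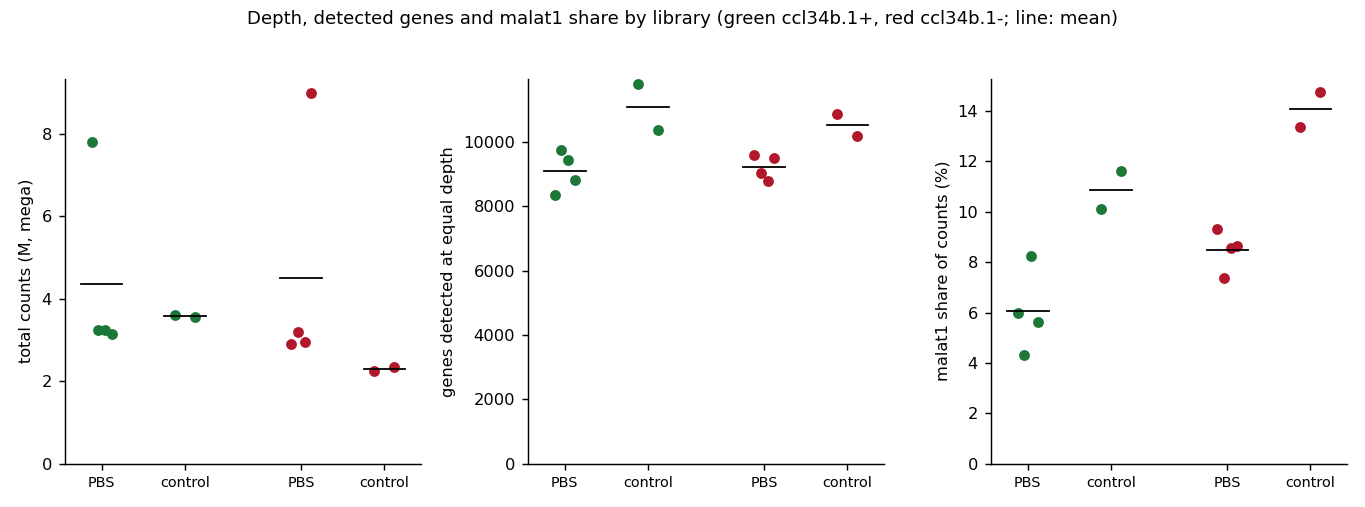
Total counts in M (mega), number of genes detected at an equal depth of 2241693 counts, and malat1 share of counts in percent, for every PBS and control library of ccl34b.1+ cells (green) and ccl34b.1- cells (red), with the mean as a line. PBS and control libraries overlap in total counts of ccl34b.1+ cells and are apart in the other panels.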

How the data were processed

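Libraries of 100 sorted cells were made by Smart-seq2 (poly(A)-primed cDNA, amplified by PCR). Per the labels, 3 technical replicates were sorted per fish and gate, of which 1 went to sequencing on the quality of its cDNA. The deposited table holds raw whole-number read counts for 32520 Ensembl gene IDs in 28 libraries, matched here by title. STAR, featureCounts and DESeq2 and the build GRCz11 (danRer11) are listed in the submitters' processing notes, without versions. The annotation, strand and treatment of multi-mapped reads are not given in the sources used here, so near-identical copies and overlapping genes are uncertain. A supplied table gave symbols for 29201 IDs (89.8%), and a symbol shared by several IDs is printed with its ID. No sequences or coordinates were used.

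PBS against control was fitted on 12 libraries with gate as covariate in edgeR 4.0.16 under R 4.3.3, with TMM, the filterByExpr filter and a robust quasi-likelihood test. The test was two-sided, with Benjamini-Hochberg adjustment over all genes tested and a threshold of 0.05. All adjusted p-values come from it unless another tool is named, and n is 4 PBS and 2 control libraries per gate. A 4-group fit gave the values per gate and their difference. The SE of a fitted difference is its absolute value divided by the square root of the F statistic of its test. It therefore adds nothing to the p-value and is unreliable for differences near 0. CPM used the scaled totals. Where a group had 0 counts, the fold was taken against 3 counts over the group. Intervals are 95% and cover counting error only, since PCR copies carry no molecular identifiers. Genes at equal depth are the number expected at the depth of the shallowest library. Fits were run on simulated counts drawn independently for each library, without a fish effect. Such counts cannot show how the test behaves when both gates come from the same fish. No 2 libraries had identical counts.

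Members and gene lists (35 lists, 1450 entries) were chosen with earlier results of these data known. The text names the sort genes, called genes with a proper symbol, at least 20 CPM and no overlap (up to 12 per direction), from the lists it describes up to 2 members, those of lowest adjusted p, and 5 interaction genes. Any other gene is marked as picked after its values were seen. The alternatives changed the scaling (size factors of DESeq2), the filter (none, or 10 CPM), the tool (DESeq2 1.42.0; limma 3.58.1 with voom quality weights, fish as a random effect or fish means; summed counts per fish), the block (replicate number) and the libraries fitted (18 of the experiment, each gate alone, each library or numbered fish left out). Thinning all libraries to the shallowest was chosen after seeing the data.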

Additional observations from a re-analysis of the deposited data

Results flagged for a closer look

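Within groups of 4 PBS libraries, 10 of 46 groups of values tested had a library that stood apart by Dixon's test, where the value given is the gap of that library to its nearest neighbour divided by the range of the group. Chance flags about 1 in 20 groups, and genes at or near 0 counts are flagged by a single count. Total counts stood apart in ccl34b.1+ library 1 (7.79 M, against 3.14 to 3.25 M in the others, value 0.976) and in ccl34b.1- library 4 (9.00 M, against 2.90 to 3.20 M, value 0.951). ciarta stood apart in ccl34b.1+ library 4, at 41.3 CPM against at most 1.75 CPM in the others (value 0.958), and in ccl34b.1- library 1, at 2.56 CPM (value 0.89). f13a1b stood apart in ccl34b.1+ library 2, at 417 CPM (value 0.831). The other flags are low counts against 0 in the other 3 libraries, each with a value of 1: NR1D1 in ccl34b.1+ library 2 and ccl34b.1- library 3, PER1 (ENSDARG00000056885) in ccl34b.1+ library 2 and ccl34b.1- library 4, and ACSF2 in ccl34b.1- library 2.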

How the results depend on the processing

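The number of genes that passed over both gates (6) moved with the method. It was 7 with DESeq2 size factors, 44 with no filter (16 of them without overlap in both gates), 3 with a filter at 10 CPM (3 without overlap), 75 in DESeq2 (29 without overlap), 50 in voom with quality weights (29 without overlap, 5 higher and 45 lower), 2 with summed counts per fish (0 without overlap), 9 with fish means, 1 in an additive fit of 18 libraries (1 without overlap), 7 with those as 6 groups and 10 after thinning (10 without overlap). Leaving out a library or a numbered fish gave 2 to 10, in both counts. In ccl34b.1+ cells the count (4) was 32 with no filter, 38 in DESeq2, 127 in voom and 0 with 18 libraries as 6 groups, and 0 to 7 with a library of that gate left out. For ccl34b.1- cells it (4) was 1 under DESeq2 size factors, 29 with no filter, 0 at 10 CPM, 104 in DESeq2, 0 in voom, 0 with 18 libraries, 0 with that gate alone and 2 after thinning, and 0 to 2 with a library of that gate left out. The gate difference (0) was 9 with no filter, 37 in DESeq2, and 0 to 1 with a library left out. The cause was not tested. The median log2 difference of all genes was -0.43 in voom and -0.26 with fish means, against -0.0016.

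No named gene that was recomputed changed sign under any alternative. Over 30 alternatives nfil3-5 passed in 27 and PER3 in 25. prdx6, malat1 and ccl35.1 passed in 13, 13 and 12, and ciarta in 12 of 29, since DESeq2 gave it no adjusted p. Among the alternatives, 12 left out a single library and 6 a numbered fish, so they share most of their data and are no independent checks. nfil3-5 passed neither with summed counts per fish nor with fish as a random effect in voom, and PER3 did not pass with summed counts. Same-numbered libraries of the gates deviated together only weakly (correlations 0.0146 to 0.0758, none over 0.1). Each had its own number as best match except PBS 4. The 2 control matches are a single comparison, since deviations of 2 libraries mirror each other (0.0593 and -0.0593). These correlations run over 4069 genes and do not show that libraries of a fish are independent for a given gene. The comparison was defined with gate as covariate and made without a block. With the replicate number as a block 6 genes passed, 3 of them the same. With fish as a random effect in voom 8 passed, 2 of them (PER3 and ciarta) the same. The others were NR1D1 and ACSF2 (adjusted p 0.00089 each), TOP2A (0.013), TET1, tmem154 and NUDT12. Over the alternatives NR1D1 passed in 5 of 29 and ACSF2 in 4 of 30. The gate difference was passed by 9 genes, ccl34b.8 and cxcl8b.1 among them, with fish as a fixed block.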
